A study of Bos taurus with 12 samples.

Results

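FABP4 and FABP5 encode cytosolic fatty acid binding proteins, small carriers that hold long-chain fatty acids and bring them to membranes, enzymes and nuclear receptors. They were followed here in cultured bovine aortic endothelial cells under 4 kinds of flow. The 2 genes were chosen by their measured log2 levels across the 4 flow conditions, from 3977 named genes, and every probe set whose annotated symbol is FABP4 or FABP5 was included, 4 of the 24016 probe sets tested. Their levels and differences are therefore a description and carry no test.

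FABP4 is best known from adipocytes and macrophages and is also made by endothelium, mainly that of capillaries and small veins. In endothelial cells its transcription is known to respond to vascular endothelial growth factor, to Notch signalling and to the transcription factor FOXO1, and PPAR-gamma activates it in adipocytes. FABP5, first described in epidermis, is made by many cell types including endothelium and is known to carry fatty acids to PPAR-delta. Both are linked to the uptake of fatty acids across the vessel wall.

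The cells came from bovine aorta, were at passage 15 in all groups, and were grown on glass for 5 days with 10% serum. They spent 24 h before flow in medium with 5% serum, 1% antibiotics and 8% Dextran 70, and then 24 h in a flow loop. Wall shear stress (WSS), the drag of the moving medium on the cell surface, was uniform at a baseline of 3.5 Pa, uniform and high at 28.4 Pa, or had a positive or a negative gradient in space, with 3 Affymetrix bovine arrays in each of the 4 groups. The comparisons ask how the level and the spatial change of shear stress relate to gene expression. The local stress in the gradient chambers is not given in the labels, nor is it said whether replicates were separate cultures, so spreads and p-values cover only these samples. Each group is a bulk culture of cells of late passage, and fewer cells with a transcript cannot be told apart from less of it in each cell.

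Of 16 listed endothelial markers 10 were measured, and their mean log2 level ranged over the arrays from 9.55 to 9.69 at baseline, 10.1 to 10.1 in the negative gradient, 10.0 to 10.2 in the positive gradient and 9.77 to 10.1 at high WSS. None of 11 adipocyte markers was measured under its name, and of 18 macrophage markers only CD14 was, so that neither source can be checked beyond that gene. Gradient and uniform-flow arrays carry separate runs of record numbers. The difference between the probe sets at the 3′ and 5′ ends of the GAPDH control, a measure of RNA and labelling quality, averaged 0.63 on the log2 scale at baseline, 0.11 in the negative gradient and 0.21 in the positive gradient. High WSS replicate 3 stood at 0.089, with the gradient arrays, while the other high WSS arrays read 0.64 and 0.70. On the EF1A control, taken the same way, it read −2.03 and the others −1.15 and −1.09. On the actin control it did not stand apart: its 1.14 lay between 1.06 and 1.24. Over all probe sets tested, this array and positive-gradient replicate 3 had the smallest root mean square difference of any pair of arrays, 0.197 log2 units. From high WSS replicates 1 and 2 it differed by 0.44 each. Why this array lay apart from its group was not tested. The differences of the carriers from high WSS are therefore given with and without high WSS replicate 3.

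The brighter of the FABP4 probe sets (designed on the mRNA NM_174314, Entrez Gene 281759) read 9.74, 9.90 and 9.51 log2 units on baseline replicates 1 to 3 and 9.29, 9.12 and 9.36 in the negative gradient. It read 8.59, 7.48 and 7.57 in the positive gradient and 7.74, 7.48 and 6.62 at high WSS. Every baseline and negative-gradient array lay above every positive-gradient and high-WSS array, with no overlap. Group means were 9.72 ± 0.20 at baseline, 9.25 ± 0.13 in the negative gradient, 7.88 ± 0.62 in the positive gradient and 7.28 ± 0.59 at high WSS (SD, n = 3). The spread within the lower groups was wide: positive-gradient replicate 1 stood well above its fellows and high WSS replicate 3 well below.

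The dimmer FABP4 probe set (designed on CB537957), whose signal cannot be set against the other as an amount, read 6.24, 5.84 and 5.30 at baseline and 5.03, 4.97 and 5.60 in the negative gradient. It read 4.38, 4.01 and 4.21 in the positive gradient and 4.33, 3.79 and 3.44 at high WSS. The same groups were high and low as on the brighter probe set. Its means were 5.79 ± 0.47, 5.20 ± 0.35, 4.20 ± 0.18 and 3.86 ± 0.45 (SD, n = 3), in the order baseline, negative gradient, positive gradient and high WSS. All arrays but baseline replicates 1 and 2 lay below the array medians of 5.65 to 5.71, and no detection call accompanied the values used here. The folds of this probe set given below rest on such low signals.

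The brighter FABP5 probe set (designed on the mRNA NM_174315, Entrez Gene 281760) read 10.63, 11.27 and 10.94 at baseline and 10.42, 10.52 and 10.94 in the negative gradient. In the positive gradient it read 9.77, 9.30 and 8.97, and at high WSS 9.29, 9.47 and 8.74. Baseline and negative-gradient arrays overlapped, and all of them lay above the arrays of the other groups. Means were 10.9 ± 0.32 at baseline, 10.6 ± 0.27 in the negative gradient, 9.35 ± 0.40 in the positive gradient and 9.17 ± 0.38 at high WSS (SD, n = 3).

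The dimmer FABP5 probe set (designed on CK969096) read 8.31, 8.79 and 8.53 at baseline and 7.68, 7.69 and 8.34 in the negative gradient. The positive-gradient arrays read 7.02, 6.62 and 6.28, and the high WSS arrays 6.92, 6.92 and 5.82. As on the brighter probe set, high WSS replicate 3 was the lowest array of all and positive-gradient replicate 1 the highest of its group. Means were 8.54 ± 0.24, 7.90 ± 0.38, 6.64 ± 0.37 and 6.55 ± 0.64 in the order baseline, negative gradient, positive gradient and high WSS (SD, n = 3).

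**Figure D1:**
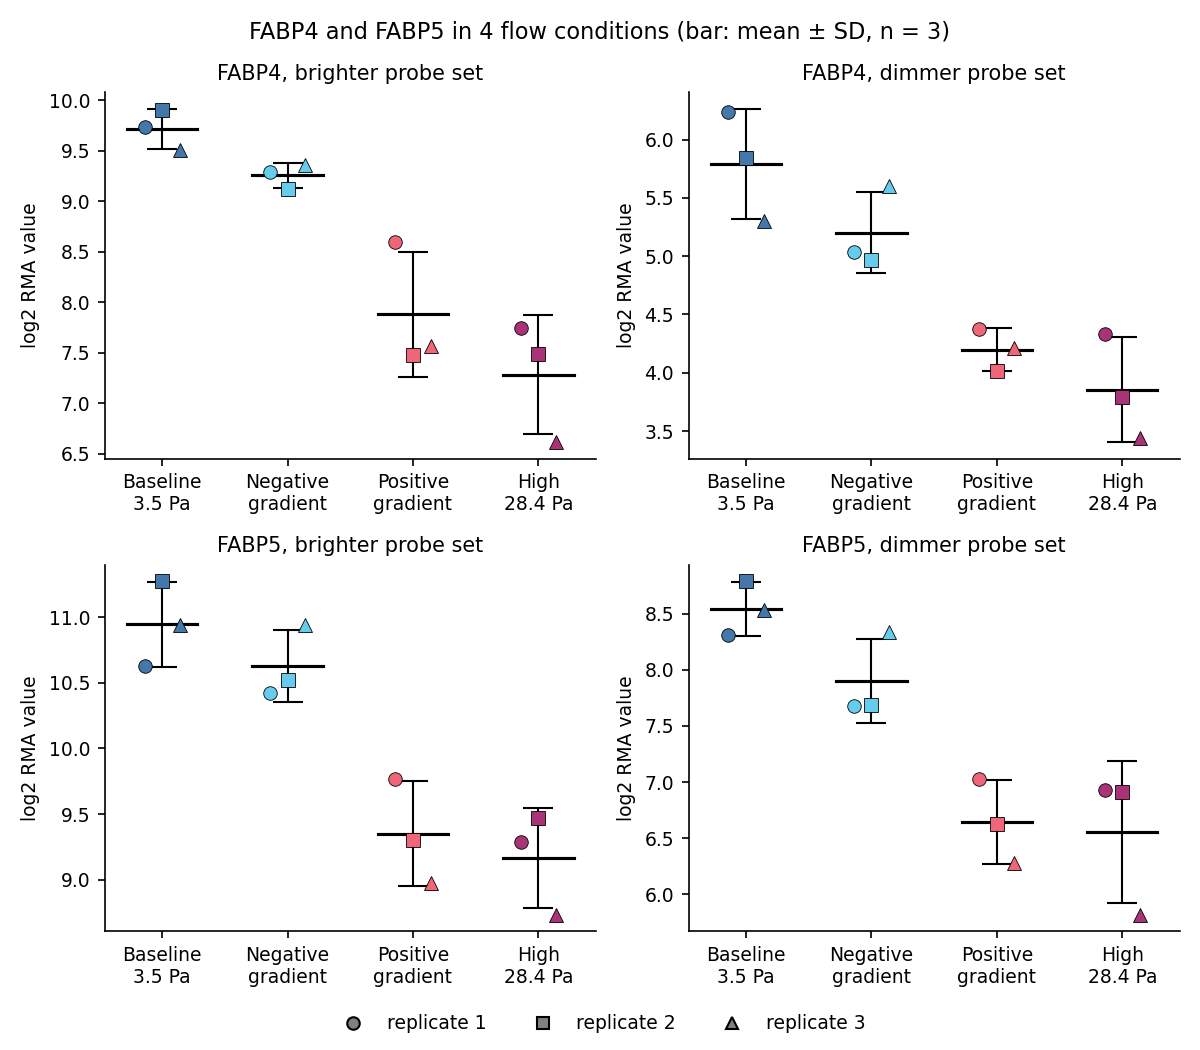
Log2 RMA value of each of the 12 arrays (points, shaped by replicate number) for the 4 probe sets of FABP4 and FABP5 in 4 flow conditions, with the group mean (long bar) and SD (whiskers, n = 3). Vertical axes differ between panels and do not start at 0; on each probe set the 6 baseline and negative-gradient arrays lie above the 6 positive-gradient and high-WSS arrays.

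On all 4 probe sets the group means came in the order baseline, negative gradient, positive gradient, high WSS. Without high WSS replicate 3 the mean of high WSS was 7.61 and 4.06 on the FABP4 probe sets and 9.38 and 6.92 on those of FABP5, and for FABP5 the last 2 groups changed places. Baseline and negative gradient overlapped on 3 of 4 probe sets, and positive gradient and high WSS on 4 of 4. The step between the middle groups did not overlap on any probe set. The lowest of the baseline and negative-gradient arrays lay 0.52 above the highest of the others on the brighter FABP4 probe set and 0.59 above it on the dimmer one. For FABP5 the gap was 0.65 on each probe set. Of all 24016 probe sets, 289 (1.2%) separated the arrays this way, a grouping chosen after the values were seen. The SD over the 12 arrays stood between percentiles 99.4 and 99.7 of all probe sets for these 4.

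The first comparison asks whether the sign of the gradient goes with a different level. FABP4 was 2.59-fold lower in the positive than in the negative gradient on its brighter probe set (log2 difference −1.37, SE 0.30) and 2.0-fold lower on the dimmer (−1.0, SE 0.26). FABP5 was lower by 2.43-fold (−1.28, SE 0.24) on the brighter and 2.39-fold (−1.26, SE 0.29) on the dimmer probe set. The groups did not overlap on 4 of 4 probe sets; among all probe sets 5.52% were lower without overlap. Within replicate numbers the FABP4 differences were −0.69, −1.64 and −1.79 on the brighter probe set, and those of FABP5 were −0.65, −1.22 and −1.96. All 3 pairs ran the same way, with the smallest difference in pair 1. No probe set of the array was called between the gradients by limma at an adjusted p under 0.05 (percent called 0), while 1247 had an unadjusted p under 0.05. With the replicate number as a block in the fit 6 were called.

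Against baseline flow the positive gradient had a lower level of both carriers. FABP4 stood 3.57-fold lower on its brighter probe set (−1.83, SE 0.30) and 3.02-fold lower on its dimmer one (−1.59, SE 0.26). For FABP5 the differences were −1.60 (SE 0.24), or 3.02-fold, and −1.90 (SE 0.29), or 3.74-fold. No array of one group reached into the other on any of the 4 probe sets, as was the case, in the lower direction, for 17.9% of all probe sets. This comparison also sets one run of records against the other.

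The negative gradient stayed much closer to baseline. FABP4 differed by −0.46 (SE 0.30) on the brighter and −0.59 (SE 0.26) on the dimmer probe set, and FABP5 by −0.32 (SE 0.24) and −0.64 (SE 0.29). Only the brighter FABP4 probe set had groups that did not overlap, 1 of 4, against 14.9% of all probe sets in that direction. The pair of replicate number 3 gave −0.14 for FABP4 and −0.0018 for FABP5 on the brighter probe sets, and 0.31 and −0.20 on the dimmer ones. Leaving out single arrays moved the difference of the brighter FABP5 probe set between −0.15 (without baseline replicate 2) and −0.48 (without baseline replicate 1), and that of the dimmer FABP4 probe set to −0.37 without baseline replicate 1.

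Raising the uniform stress from 3.5 to 28.4 Pa went with a lower level of both carriers. FABP4 was 5.41-fold lower at high WSS on its brighter probe set (−2.43, SE 0.30) and 3.83-fold lower on its dimmer one (−1.94, SE 0.26). FABP5 was 3.43-fold lower (−1.78, SE 0.24) and 3.97-fold lower (−1.99, SE 0.29). The groups did not overlap on 4 of 4 probe sets, against 9.89% of all probe sets that were lower without overlap. Without high WSS replicate 3 the differences were −2.10 and −1.73 for FABP4 and −1.56 and −1.62 for FABP5, which for FABP5 was less than the difference between positive gradient and baseline.

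Between the positive gradient and high WSS the levels overlapped on all 4 probe sets, and 3.98% of all probe sets were higher in the positive gradient without overlap. Here too one run of records is set against the other. FABP4 was higher in the positive gradient by 0.60 (SE 0.30) and 0.34 (SE 0.26), and FABP5 by 0.18 (SE 0.24) and 0.09 (SE 0.29). Without high WSS replicate 3 they were 0.27 and 0.14 for FABP4, and −0.031 and −0.28 for FABP5. The FABP5 differences were also below 0 without positive-gradient replicate 1, and that of the brighter FABP4 probe set was then 0.24. The order of the positive gradient and high WSS was thus not settled for FABP5. For FABP4 the differences without high WSS replicate 3 were smaller than their SEs (0.28 on each probe set). Pair 2 of the brighter FABP4 probe set gave −0.0073, so the order is not firm there either.

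Relative to high WSS, the negative gradient had more of both, in a comparison that also sets one run of records against the other. FABP4 was 3.93-fold higher (1.97, SE 0.30) on the brighter and 2.54-fold higher (1.35, SE 0.26) on the dimmer probe set. FABP5 was 2.75-fold higher (1.46, SE 0.24) and 2.54-fold higher (1.35, SE 0.29). Again 4 of 4 probe sets had groups that did not overlap, against 7.45% of all probe sets in that direction. Without high WSS replicate 3 the brighter probe sets differed by 1.64 for FABP4 and 1.25 for FABP5, and the dimmer ones by 1.14 and 0.98.

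**Figure D2:**
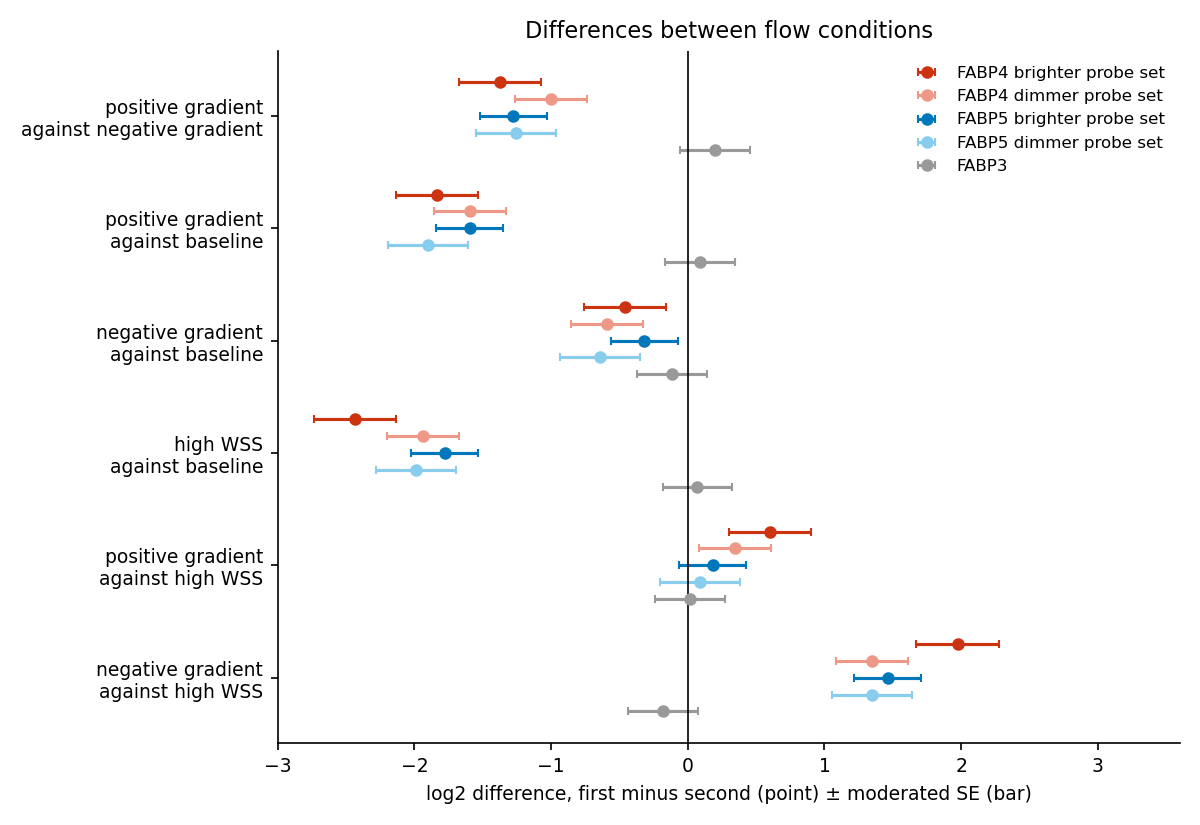
Log2 difference (point) and moderated SE (bar) for the probe sets of FABP4, FABP5 and the related carrier FABP3 in 6 comparisons, first condition minus second. FABP4 and FABP5 sit together left of 0 for the positive gradient against the negative gradient or baseline and for high WSS against baseline, and right of 0 for the negative gradient against high WSS, while FABP3 lies between −0.18 and 0.20 throughout.

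Positive against negative gradient and high against baseline WSS have no array in common, and each lies within one run of records. High WSS replicate 3 nevertheless stood with the gradient arrays in the GAPDH control. In 24 of 3977 named genes (0.604%) the level was lower by more than 1 log2 unit in both comparisons, on the probe set with the highest mean of each gene, and 6 genes were higher by as much in both. FABP4 and FABP5 are among the 24, but they were chosen by their levels in these groups, so this and their ranks carry no test. By size, FABP4 had the 2nd lowest difference of all named genes for high against baseline WSS and the 10th lowest between the gradients, and FABP5 the 13th and 14th. With high WSS replicate 3 left out, 22 named genes were lower in both (0.553%), 20 of them the same genes, and FABP4 and FABP5 ranked 3rd and 11th for high against baseline WSS. On the dimmer probe set FABP4 lay at −1.0 between the gradients, at the edge of that range.

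**Figure D3:**
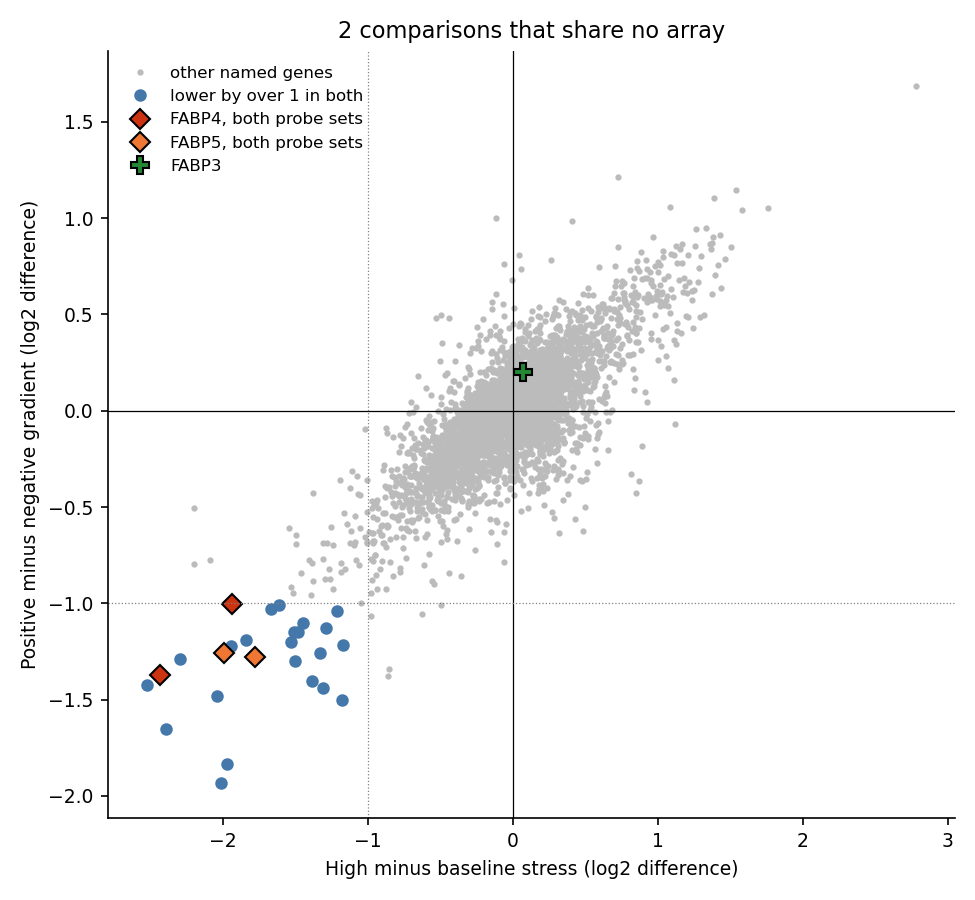
Each point is a named gene, placed by its log2 difference between high and baseline WSS (horizontal) and between positive and negative gradient (vertical). Both FABP4 probe sets and both FABP5 probe sets lie at the lower left, with differences of −1.78 to −2.43 and −1.0 to −1.37; FABP3 lies near the origin, and dotted lines mark −1.

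The carriers also varied together within groups, to a degree that depended on the probe sets. Over the 12 arrays the Pearson r between the brighter FABP4 and FABP5 probe sets was 0.96 (Spearman's rho 0.92), and for the deviations from the group means it was 0.76. With the dimmer FABP4 probe set in place of the brighter one, the deviations correlated at 0.33 with the brighter and 0.53 with the dimmer FABP5 probe set. The probe sets of FABP5 agreed more closely (r 0.98, and 0.94 within groups) than those of FABP4 (0.95, and 0.64 within groups). Positive-gradient replicate 1 and negative-gradient replicate 3 were the highest of their groups on all 4 probe sets, and high WSS replicate 3 the lowest of its group. These correlations describe 12 arrays that share 4 conditions.

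FABP3, the heart-type carrier and the only other member of a list of 16 family genes that was measured by name, did not share the pattern. It averaged 7.36 ± 0.48 at baseline, 7.24 ± 0.53 in the negative gradient, 7.44 ± 0.035 in the positive gradient and 7.43 ± 0.17 at high WSS (SD, n = 3). All groups overlapped, the differences lay between −0.18 and 0.20 (SE 0.26), and limma gave adjusted p-values from 0.766 to 1.0 in the 6 comparisons. A p of this size does not show that FABP3 was equal in all conditions.

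Other genes of fatty acid handling were taken from lists written with earlier results of these data known. Of 185 listed genes 56 were measured besides FABP4 and FABP5, FABP3 included. The fatty acid translocase CD36, lipoprotein lipase LPL, the receptors PPARG and PPARD, and FOXO1 were not among them and were not analysed here. In the positive gradient against baseline 6 of the 56 rose and 5 fell by limma, while 7.01% of all probe sets were called, 2.74% higher and 4.27% lower. These sets are unlike, as 19290 of the 24016 probe sets carry no single gene symbol and the 56 are named genes. Among the 12008 brighter probe sets, fitted alone, 1685 were called, and with the series matrix values 1637 of 7141. Whether the 56 were called more often than other named genes was not tested, here or for the shares given below. With the replicate number as a block 12 of the 56 rose and 11 fell, and 4074 of all 24016 probe sets were called. The median difference of the 56 was −0.043, against 0.012 for all probe sets. As for the carriers, this comparison sets one run of records against the other. These calls rest on few arrays: none was left without any 1 of the 3 positive-gradient arrays or without baseline replicate 3, 3 were left without baseline replicate 1 and 7 without baseline replicate 2, and 18 were called without high WSS replicate 3. The last 3 of these fits called 373, 1060 and 3248 of all 24016 probe sets.

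Enzymes that make, desaturate and lengthen fatty acids had the most calls. In the positive gradient against baseline 4 of 9 rose and 1 fell, with a median difference of 0.43. FADS3, a member of the fatty acid desaturase family, rose by 1.41 (SE 0.27, adjusted p 0.0195). ELOVL1 and TECR, which act in the elongation of very long chains, rose by 0.75 (adjusted p 0.0331) and 0.75 (adjusted p 0.0389). ACLY, which makes the cytosolic acetyl-CoA used for fatty acid synthesis, rose by 0.73, also called. The elongase ELOVL4 fell by 0.74 (adjusted p 0.021).

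ACLY was also the single gene of the 56 called in high against baseline WSS, where it rose by 0.83 (SE 0.13, adjusted p 0.0166 by limma), while 0.408% of all probe sets were called, 0.112% higher and 0.296% lower. It read 10.4, 10.0 and 10.3 at baseline and 11.1, 11.0 and 11.1 at high WSS, with 10.5, 10.2 and 10.3 in the negative gradient and 10.9, 10.9 and 11.0 in the positive gradient. The groups with low FABP4 and FABP5 were the groups with high ACLY, and no array of one pair of groups reached into the other. This grouping was chosen after the values were seen. The probe sets that separate in the direction of ACLY were not counted, while 289 of 24016 (1.2%) did so in that of the carriers. A link between ACLY and the carriers was not tested. With the replicate block 9 of the 56 were called in this comparison, 5 higher and 4 lower, and 1294 of all 24016 probe sets. The call of ACLY was lost without baseline replicate 2 or 3 and without high WSS replicate 1 or 3.

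In the negative gradient against baseline 2 of the 56 rose, where 1.67% of all probe sets were called, 1.2% higher and 0.466% lower. FADS3 rose by 1.41 (SE 0.27, adjusted p 0.0345 by limma). ACADVL, which starts the beta-oxidation of very long chains in mitochondria, rose by 0.72 (SE 0.15, adjusted p 0.0389 by limma). With the replicate block 4 rose and 2 fell, and 1590 of all 24016 probe sets were called. In the fit without the block, both calls were lost without any single negative-gradient array, without positive-gradient replicate 1 or 2 and without baseline replicate 1 or 3. High WSS arrays also bear on them through the common spread, with 4 calls without replicate 1 and 7 without replicate 3. Those fits called 567 and 2073 of all 24016 probe sets. Negative gradient against baseline also sets one run of records against the other. FADS3 read 7.44 to 8.15 at baseline, 8.97 to 9.40 in the negative gradient, and 8.03, 8.16 and 9.19 on high WSS replicates 1 to 3. ACADVL read 9.40 to 9.45, 10.1 to 10.2, and 9.34, 9.30 and 9.87 in the same order. The part of the record run and of RNA quality in these calls was not tested.

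The lists of uptake, of acyl-CoA activation and beta-oxidation, and of storage had 1 call each in the positive gradient against baseline. CAV1, the main coat protein of caveolae, through which fatty acids enter endothelial cells, fell by 0.89 (SE 0.22, adjusted p 0.0362), 1 of 5 uptake genes. Its other probe set differed by −0.26 there and was higher in the negative gradient than at baseline by 0.76, so the probe sets of CAV1 did not tell the same story. Of 16 genes listed under acyl-CoA activation and beta-oxidation ACBD3, an acyl-CoA binding domain protein of the Golgi, fell by 0.55 (adjusted p 0.0388), and its other probe set differed by −0.80. The other 15 were not called, among them the oxidation enzyme ACADVL at 0.45 (adjusted p 0.0764 by limma). Of the 16 values 7 were positive and 9 negative. Of 5 genes of lipid droplets and storage BSCL2, the seipin that shapes lipid droplets, fell by 0.62 (adjusted p 0.037).

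Among 7 nuclear receptors, PPAR partners and PPAR target genes none was called in the positive gradient against baseline or in high against baseline WSS. With the replicate block 3 rose and 1 fell in the positive gradient against baseline: NR1H2 (0.47, adjusted p 0.042), RARA (0.55, 0.0237) and ACADVL (0.45, 0.049) rose, and CEBPD fell (adjusted p 0.0484). The block fit called 4074 of all 24016 probe sets there. The median difference was 0.47 in the first (0.012 over all probe sets), with CEBPD, a transcription factor of adipocyte differentiation, at −0.65 (adjusted p 0.62 without the block) and CEBPB, its relative, at 0.60 (adjusted p 0.187). ACADVL, a known PPAR target as well as an oxidation enzyme, was the 1 call in the negative gradient against baseline. FABP4 is itself a known target of PPAR-gamma.

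Of 8 measured regulators known to act on endothelial FABP4 or on endothelial fatty acid transport, 1 rose and 1 fell in the positive gradient against baseline. FLT1, the receptor VEGFR1, rose by 1.19 (SE 0.31, adjusted p 0.0394 by limma). With the replicate block 1 rose and 3 fell, and 4074 of all 24016 probe sets were called. The ligand of FLT1, VEGFB, known for directing endothelial uptake of fatty acids, fell by 0.87 (SE 0.17, adjusted p 0.0211 by limma). The Notch ligand JAG1 (−0.61) and the receptor NOTCH4 (−0.48) were called with the block alone (adjusted p 0.0248 and 0.0326). The other probe set of JAG1 went the opposite way there, with a difference of 0.31. In high against baseline WSS the values were 1.36 for FLT1 and −0.77 for VEGFB, each at an adjusted p of 0.071, and with the replicate block 0.00331 and 0.00892. They were 1.17 and −0.71 (adjusted p 0.218 and 0.2) without high WSS replicate 3. VEGFB read 7.98, 8.60 and 8.01 at baseline and 7.37, 7.61 and 7.31 at high WSS.

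The eicosanoid enzymes had 1 call of 6 in the positive gradient against baseline and 1 in the negative gradient against high WSS. PTGIS, prostacyclin synthase, rose by 0.68 (adjusted p 0.0234). PTGDS, prostaglandin D synthase, was higher in the negative gradient than at high WSS by 0.90 (SE 0.14, adjusted p 0.0376 by limma), the only one of the 56 called in that comparison, where 0.0958% of all probe sets were, 0.0625% higher and 0.0333% lower. That call was lost without any array of either group except high WSS replicate 3, and also without replicate 2 or 3 of the positive gradient or 1 or 3 of baseline. Of the 56 genes 7 were called without high WSS replicate 3, and of all 24016 probe sets 1767. Negative gradient against high WSS also sets one run of records against the other.

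Between the gradients none of the 56 was called by limma, and 5 had an unadjusted p under 0.05. ACLY had the value 0.59 (adjusted p 0.552), FLT1 0.84 (adjusted p 0.854) and CAV1 −0.57 (adjusted p 0.89). Between the positive gradient and high WSS none was called either, and 7 had an unadjusted p under 0.05. Without high WSS replicate 3, 3 were called there: ACADVL, CEBPB and FADS3, whose differences with all arrays were 0.38, 0.67 and 0.74. That fit called 342 of all 24016 probe sets, and the comparison sets one run of records against the other. In neither comparison was any probe set of the array called with all arrays in the fit without the block. With the block 6 probe sets were called between the gradients.

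**Figure D4:**
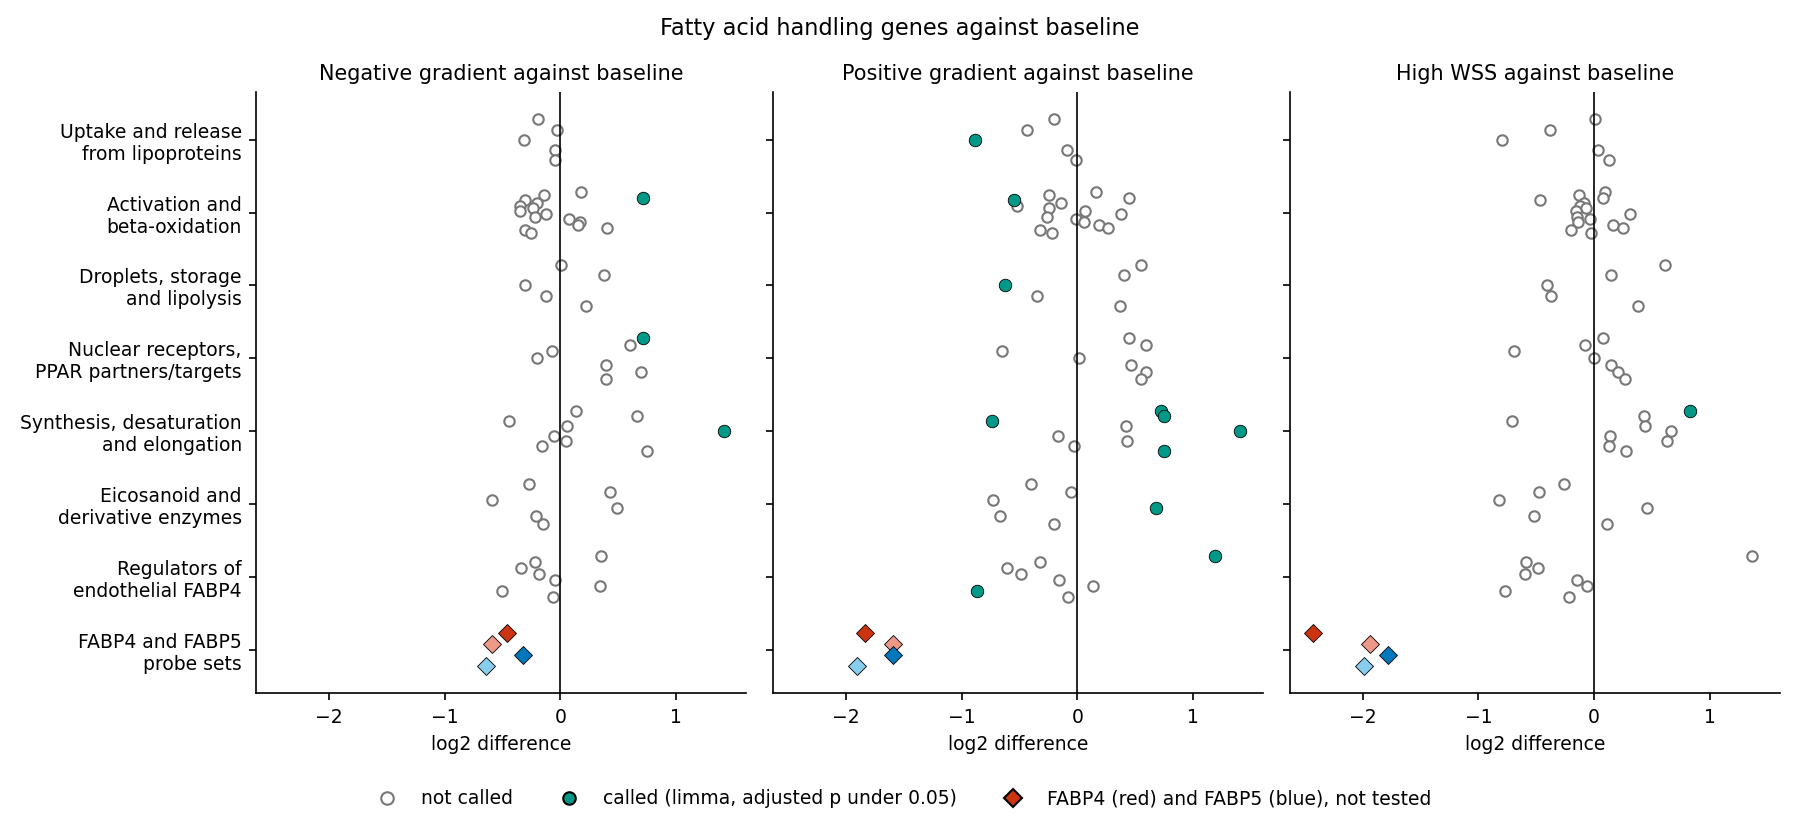
Log2 difference from baseline of the measured genes of fatty acid handling other than FABP3, in rows by list, for the negative gradient, the positive gradient and high WSS (filled circles were called by limma at an adjusted p under 0.05; a gene in several lists appears in each). The FABP4 and FABP5 probe sets (diamonds, not tested) reach −1.83 and −1.90 in the positive gradient and −2.43 and −1.99 at high WSS, below every other gene shown in those panels.

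By the correlation of log2 values over the 12 arrays, the named genes most like the brighter FABP4 probe set were DHRS3 (r 0.97), LOC512805 (0.97), FABP5 (0.96), PRSS23 (0.96) and ASAH1 (0.95). DHRS3, a retinaldehyde reductase, followed FABP4 also within groups (r 0.97 of the deviations). Its means were 7.95 ± 0.37 at baseline, 7.37 ± 0.041 in the negative gradient, 6.14 ± 0.67 in the positive gradient and 6.0 ± 0.71 at high WSS (SD, n = 3). The most opposite were YBX3, a cold-shock domain protein that binds DNA and RNA (r −0.96), the kinase STK38L (−0.96) and SPRY2, a feedback inhibitor of growth factor receptors (−0.93).

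For the brighter FABP5 probe set the most alike were MAGEH1 (r 0.98), CYBRD1, an iron-reducing membrane protein (0.97), ASAH1, the acid ceramidase of lysosomes (0.97), VKORC1 of the vitamin K cycle (0.97) and SGSH, a lysosomal sulfatase (0.96). FABP4 came 6th of 3976. The most opposite were DCK, deoxycytidine kinase (r −0.97), ACLY (−0.96) and C10H15orf48 (−0.95). ASAH1 was the 1 gene near the top for both, with means of 11.4 ± 0.19 at baseline, 11.2 ± 0.19 in the negative gradient, 10.5 ± 0.21 in the positive gradient and 10.5 ± 0.25 at high WSS (SD, n = 3). These genes share the 12 arrays and the 4 conditions with the carriers, so the correlations include the differences between the groups.

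The dimmer probe sets had partly other neighbours in likeness. For FABP5 the list was MAGED2 (r 0.98), RND3 (0.98), ASAH1 (0.97), CYBRD1 (0.97) and MAGEH1 (0.97), with NR4A1, an early-response nuclear receptor, the most opposite (−0.96), then C10H15orf48 (−0.96) and YBX3 (−0.96). Of these 5, 3 were also among the most alike of the brighter FABP5 probe set. For FABP4 the list was EEF2K (0.96), PSME4 (0.95), CBX6 (0.95), HOXA5 (0.94) and PARM1 (0.94), none of them on the list of the brighter probe set, with YBX3 (−0.96), C10H15orf48 (−0.94) and POP5 (−0.93) the most opposite.

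**Figure D5:**
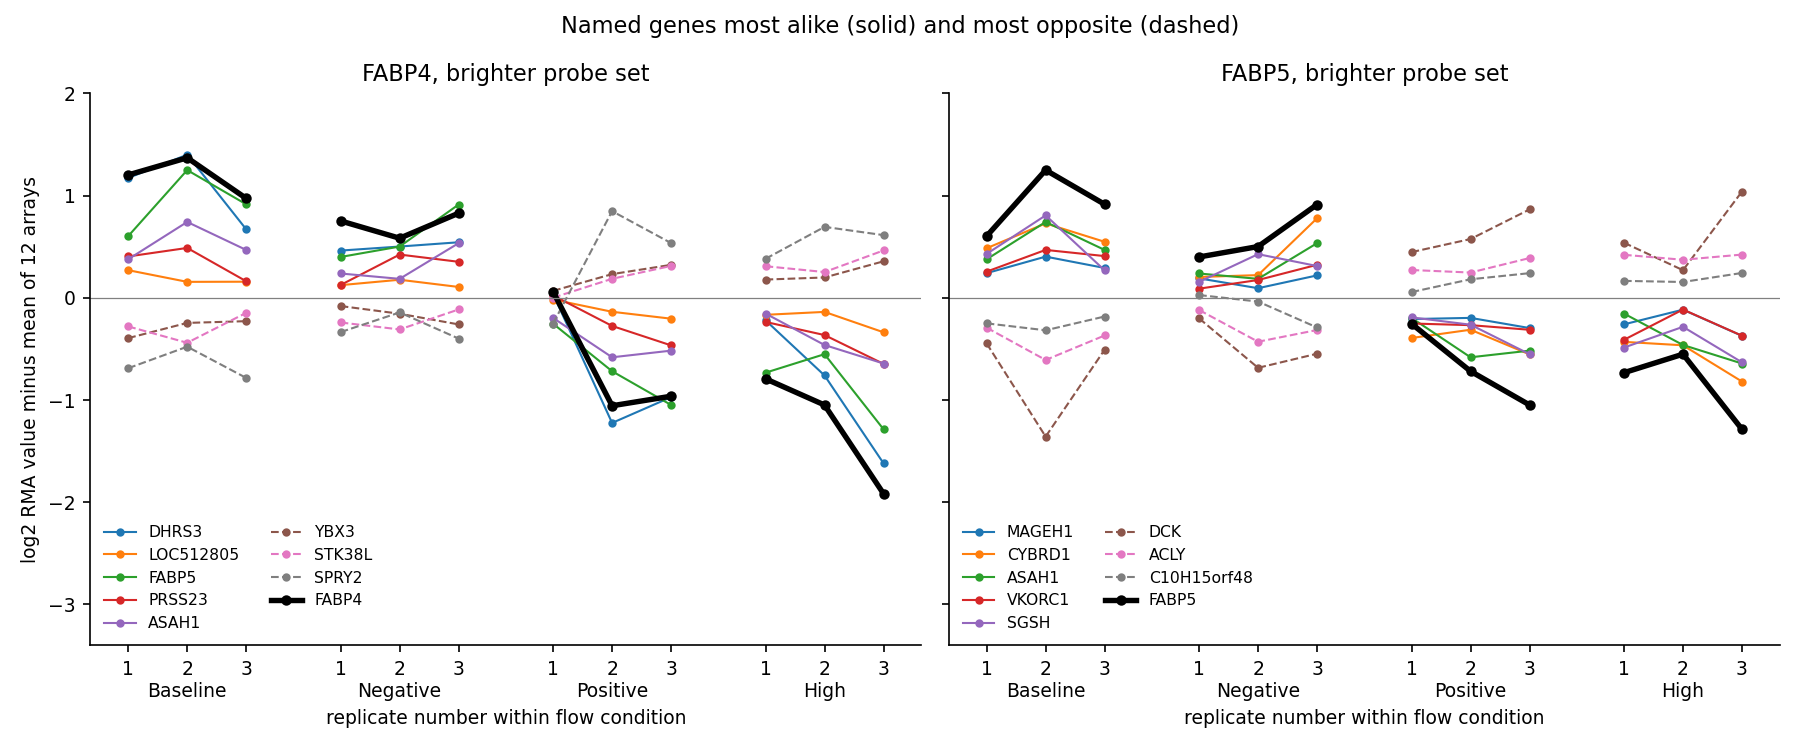
Log2 RMA value minus the mean of the 12 arrays, by replicate number within flow condition, for the brighter probe sets of FABP4 and FABP5 (thick black) with the 5 named genes most alike (solid) and the 3 most opposite (dashed). The black lines lie above 0 on the baseline and negative-gradient arrays and, but for FABP4 on positive-gradient replicate 1, below 0 on the others.

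Levels of other cell type markers are set beside these results, and their part in them was not tested. CD14, the only measured gene of the macrophage list, averaged 6.41 (5.15 to 7.99) at baseline, 5.84 (4.47 to 7.12) in the negative gradient, 4.64 (4.18 to 5.52) in the positive gradient and 4.88 (3.98 to 6.09) at high WSS. Its groups overlapped in all 6 comparisons, and it was highest on replicate 2 of every group. It differed by −1.77 between positive gradient and baseline (adjusted p 0.156 by limma, and 0.00705 with the replicate block). Of 10 markers of microvascular and lymphatic endothelium only PLVAP and AQP1 were measured, and their mean ranged over the arrays from 5.86 to 7.28 at baseline, 6.31 to 7.91 in the negative gradient, 7.06 to 7.92 in the positive gradient and 6.89 to 7.70 at high WSS. They did not move alike: AQP1, a water channel, differed from baseline by 1.56 in the positive gradient (adjusted p 0.132, and 0.00329 with the block) and by 1.5 at high WSS (0.278 and 0.00271), and PLVAP by 0.17 and −0.21. Of 10 smooth muscle markers TAGLN and SMTN were measured. TAGLN, an actin-binding protein, averaged 9.04 at baseline, 9.95 in the negative gradient, 8.61 in the positive gradient and 8.19 at high WSS. It differed by −1.34 between positive and negative gradient (adjusted p 0.651 by limma, 0.0712 with the block) and by 1.77 between negative gradient and high WSS (0.0723 and 0.00762), while SMTN differed by 0.22 and −0.013. The 2 smooth muscle genes had a mean of 7.24 at baseline and 7.95, 7.39 and 7.07 in the negative gradient, the positive gradient and high WSS, and the 3 of 10 fibroblast markers 9.54, 9.10, 8.92 and 9.12 in the same order. All 3 fibroblast values were negative in the positive gradient against baseline, where limma called 1 lower and, with the block, 2 lower. Of 10 endothelial markers 3 were called higher there, and with the block 3 higher and 2 lower. Of all probe sets 7.01% were called in that comparison, and with the block 4074 of 24016. By mean level the fibroblast marker COL1A2 stood at percentile 96.0 of named genes, and the endothelial marker PECAM1 at 96.3.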

How the data were processed

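Log2 values of 24128 probe sets on 12 arrays were used as deposited. Per the submitters' processing notes, the authors used RMA, which corrects background, normalizes by quantiles and summarizes probe sets, and limma; versions: not given in the sources used here. Array medians were 5.65 to 5.71. Precision is limited by having 3 arrays a group. After 112 control probe sets were left out, 24016 were tested, of which 4726 carried 1 gene symbol in the platform annotation, for 3977 genes; a gene with several probe sets was represented by the one with the highest mean. One limma model (limma 3.58.1, R 4.3.3) with a mean per group gave differences, moderated SEs and Benjamini-Hochberg adjusted p-values over 24016 probe sets, called under 0.05; the procedure was tested on simulated data. Same-numbered replicates deviated together in 5 of 6 comparisons (correlations of 0.149 to 0.616). In negative gradient against high WSS they did so for numbers 1 and 2 (0.33 and 0.41) but not for number 3 (−0.079). The main fit did not use the numbers, although they may pair the samples. Calls come from that fit unless the block or another alternative is named, and counts with the block are given beside them.

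The members and gene lists were chosen with earlier results of these data known. Text names all FABP family genes, up to 4 called genes with the largest difference per list and comparison, some of the largest differences where none was called, and by correlation the 5 named genes most alike and 3 most opposite. The order and names of neighbours on the chromosome follow RefSeq (ARS-UCD2.0), and other gene symbols are those of the platform annotation. No sequences are shown. Alternatives were the replicate block, array medians subtracted, bright probe sets only, a trended and robust fit, the series matrix values and each array left out.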

Additional observations from a re-analysis of the deposited data

How the results depend on the processing

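The 24 differences of the FABP4 and FABP5 probe sets moved by less than the spread between replicates under every alternative run, and only those of FABP5 between the positive gradient and high WSS crossed 0 when high WSS replicate 3 or positive-gradient replicate 1 was left out (from −0.031 to 0.37 and from −0.28 to 0.27). Counts of calls moved far more, and apart from arrays being left out the cause was not tested. With the replicate block, 6 probe sets were called between the gradients, 4074 in positive gradient against baseline and 1590 in negative gradient against baseline. The block fit called 1294 in high against baseline WSS and 1030 in negative gradient against high WSS, where the arrays of number 3 did not deviate together. Of the 56 fatty acid genes 23, 6, 9 and 6 were called with the block in the last 4 of these comparisons. With bright probe sets only, high against baseline WSS had 210 probe sets and 3 of the genes, and negative gradient against high WSS 101 and 2. With the trended and robust fit these were 201 and 2, and 117 and 2. With array medians subtracted, negative gradient against high WSS had 10 probe sets and 0 of the genes. Leaving out 1 array gave 0 to 3248 probe sets and 0 to 18 genes in positive gradient against baseline (1684 and 11 with all arrays), 0 to 2073 and 0 to 7 in negative gradient against baseline (401 and 2), 17 to 123 and 0 to 2 in high against baseline WSS (98 and 1), 0 to 342 and 0 to 3 in positive gradient against high WSS (0 and 0), and 0 to 1767 and 0 to 7 in negative gradient against high WSS (23 and 1). The highest count of probe sets came without high WSS replicate 3, except in high against baseline WSS, where that gave the lowest. The series matrix repeats 7194 probe sets with 0 cells that differ; fitted alone, with 7141 tested, it gave 1637 calls in positive gradient against baseline, 428 in negative gradient against baseline, 189 in high against baseline WSS, 57 in negative gradient against high WSS and 0 in the others.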

Other observations

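FABP5 and FABP4 lie near each other on bovine chromosome 14, with 2 protein-coding genes between them in the reference order, PMP2 and FABP9, themselves carriers of the same family and not measured by name. The nearest measured genes were TPD52, MRPS28 and HEY1 on the FABP5 side and EXT1, MED30, RAD21 and EIF3H on the FABP4 side, and limma called none of the 7 in any of the 6 comparisons. Of all probe sets 7.01% were called in positive gradient against baseline and 1.67% in negative gradient against baseline. The shares were 0.408% in high against baseline WSS, 0.0958% in negative gradient against high WSS, and 0 elsewhere. With shares this low, no call among 7 genes does not set them apart from other genes. TPD52, a protein of vesicle traffic, differed by −0.88 (SE 0.31, adjusted p 0.0943) in the positive gradient against baseline and by −0.64 (adjusted p 0.359) in high against baseline WSS. EXT1, an enzyme of heparan sulfate synthesis, differed by −0.37 (adjusted p 0.118) and −0.50 (adjusted p 0.137) in the same comparisons.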
